A study of Bos taurus with 24 samples.

Results

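Among the genes counted in calf adrenal gland, 11 of 27570 Ensembl gene IDs were abundant, lower in every calf at weaning than in any calf at birth, and lower by less than 2-fold. They were chosen from the counts themselves. Counts were turned into CPM, with each library scaled to a total of 1000000. An ID was kept when its mean over 24 libraries was at least 20 CPM, its lowest birth library lay above its highest weaning library, and its mean at birth over its mean at weaning (0.5 CPM added to each) was at least 1.25 and under 2. The fall with age is therefore what selected these genes: it is described below and carries no test.

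The study sequenced RNA from adrenal glands of 24 female calves in 4 groups of 6. Calves had been exposed before birth either to heat stress (in utero heat stressed, IUHS) or to cooling (in utero cooled, IUCL), and glands were taken at birth (day 0) or at weaning (day 63). Each library came from a different calf, so the ages were compared between animals and not within them. Calves are named here by the number in their label, and no strain or breed was used here.

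The adrenal gland has an outer cortex that makes glucocorticoids, mineralocorticoids and androgens from cholesterol, and an inner medulla of chromaffin cells that makes catecholamines. In ruminants, cortisol output of the fetal cortex rises before birth as part of the signal for labour, and the cortex is remodelled in the weeks after birth. Whole-gland RNA mixes cortex, medulla, vessels, connective tissue and blood, so fewer cells of a type and less RNA per cell cannot be told apart in any value below.

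The count tables do not pair IDs with gene names. Of 37063 genes in the RefSeq table used (assembly ARS-UCD2.0), 0 carried an Ensembl ID. Consequently 0 of the 11 members had a symbol, and their roles, lengths, positions and sequences are not given. Marker genes of cortex, medulla and other cell types were not matched either, and the tissue label was not checked against them. The members are numbered 1 to 11 from the highest to the lowest mean CPM. CPM was not divided by gene length, so this order ranks shares of the counted reads and not transcript levels.

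Of the 8208 IDs with a mean of at least 20 CPM, 18 (0.219%) had every birth library above every weaning library. The ratio of means was at least 2 for 7 of these, under 1.25 for 0, and between for the 11 members. A ratio in that same range with overlapping or separate ages was found for 776 IDs (9.45%), so separation of the ages was the narrower condition. The members ranged from 25.5 to 1365 CPM with a median of 275 CPM, above the median of 58.0 CPM of all 8208 IDs. Library totals ran from 12261651 to 19012206 counts, and a member had between 169 and 34853 counts in a library.

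**Figure D1:**
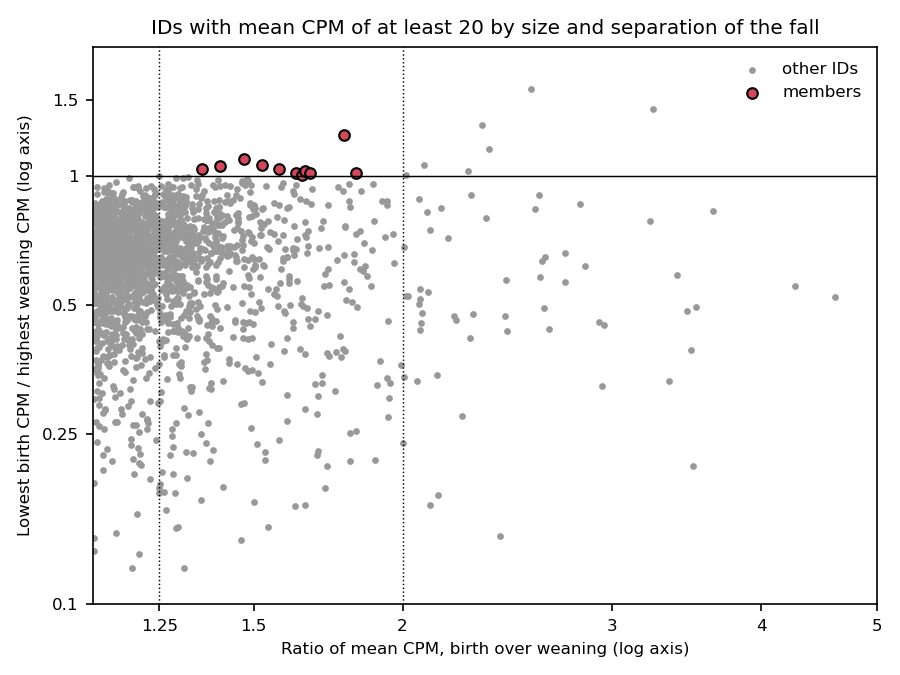
Each point is 1 ID with a mean of at least 20 CPM, placed by the ratio of its mean CPM at birth to that at weaning (horizontal, log axis) and by its lowest birth CPM over its highest weaning CPM (vertical, log axis), for ratios of at least 1.1. Dotted lines mark ratios of 1.25 and 2, the solid line marks equal values, and 11 of the 2088 IDs lie outside the plotted window; the 11 members (red) lie just above the solid line, except 1 at 1.25.

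The separation of the ages was wide for 1 member and thin for the other 10. Member 1, ENSBTAG00000014731, had a gap of 311 CPM between its lowest birth and highest weaning library, so the birth value was 24.7% higher. The next widest gap was 9.73%, in member 5, and the narrowest was 0.303%, in member 6, where the lowest birth library had 276 CPM and the highest weaning library 275 CPM. The nearest ID on the other side of that limit had 213 CPM in its lowest birth and 214 CPM in its highest weaning library, with a ratio of means of 1.32. Members' ratios ran from 1.36 to 1.83, clear of both limits, while the nearest ID above the upper limit had a ratio of 2.01. At the lower end of abundance the last member had 25.5 CPM, and the nearest ID left out only for abundance had 19.2 CPM and a ratio of 1.62.

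Which genes met the rule depended on how libraries were scaled. With TMM scaling (trimmed mean of M-values, which sets a library's scale from most of its genes and not from its total), 9 IDs met it, and member 1 was the 1 ID in common with the 11. With DESeq2 size factors 10 IDs met it, and 2 of them, members 1 and 11, were among the 11. The ratios of means hardly moved, from 1.35 to 1.82 with TMM, so the size of the fall was kept while the separation of all 24 libraries was not. With TMM, 10 or 11 of the 12 birth libraries still lay above the highest weaning library in each of members 2 to 11. Seen from the other side, between 7 (member 8) and 11 of the 12 weaning libraries lay below the lowest birth library in these members. A fall of about this size in the mean thus held under both of these scalings, but "every calf" held under both for member 1 only.

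**Figure D2:**
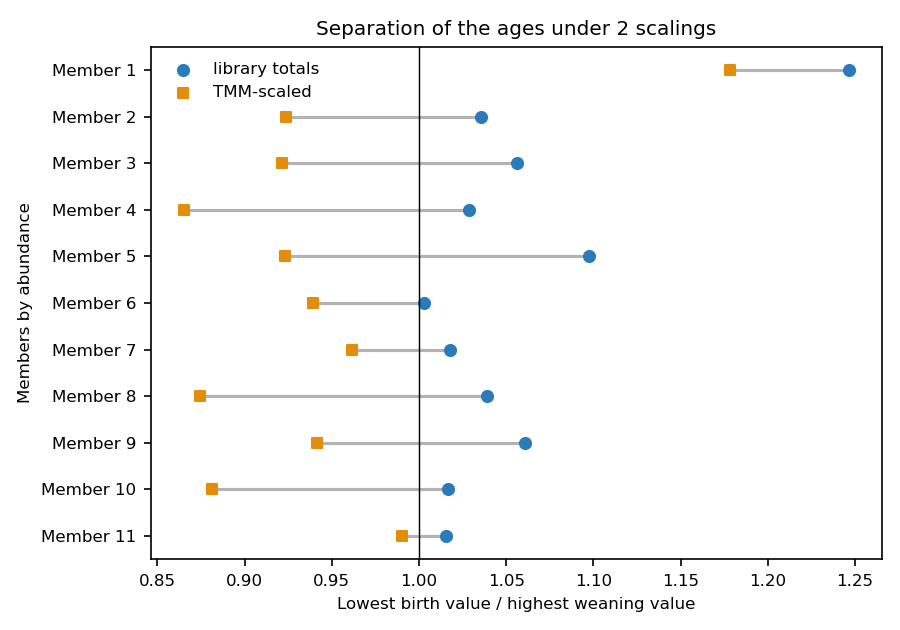
The lowest birth value over the highest weaning value is shown for each member, with libraries scaled by their totals (circles) or by TMM (squares); the line at 1 marks equal values. All 11 members lie above 1 with library totals, and member 1 alone lies above it with TMM, at 1.18.

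A few calves set the limits. IUHS calf 5 at birth was the lowest birth library for 7 of the 11 members, while it was the lowest for 14.3% of all 8208 IDs and the highest for 23.2% of them. Its TMM factor, 1.09, was the highest of the 24 libraries, and IUHS calf 31 at weaning, the highest weaning library for 3 members, had the lowest factor, 0.917. A higher factor lowers a library's scaled values. With TMM, IUHS calf 5 was the lowest birth library of every member except member 11, where IUHS calf 2 was. Without IUHS calf 5, 35 IDs met the rule, and without IUCL calf 3 at birth 20 did. All 11 members met it again without any 1 of the 24 libraries. Leaving out a library can only keep or widen the separation of the ages, so this outcome was largely set in advance. The part of library composition in these limits was not tested.

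Member 1 took the largest share of counts and was the most widely separated. In cooled calves at birth it had from 1572 to 1830 CPM with a median of 1706, and in heat-stressed calves from 1634 to 1983 CPM with a median of 1770. At weaning the range was 830 to 1079 CPM (median 946) in cooled and 810 to 1261 CPM (median 982) in heat-stressed calves. IUHS calf 28 was the high value at weaning, and the other 11 weaning calves stayed at or below 1079 CPM. Group means in cooled calves were 1712 ± 85.0 CPM at birth and 956 ± 88.7 CPM at weaning, and in heat-stressed calves 1790 ± 115 and then 1003 ± 147 CPM (SD, n = 6). The fitted change with age was -0.84 ± 0.11 in cooled and -0.80 ± 0.11 in heat-stressed calves (log2, standard error from edgeR with TMM scaling).

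Members 2 to 5 were the other abundant genes, each at 653 CPM or more in every birth calf. Member 2 had 1016 to 1797 CPM at birth (median 1257) and 687 to 981 CPM at weaning (median 819). Its highest birth value belonged to IUHS calf 4, far above the 1282 CPM of the next heat-stressed calf. Member 3 had 790 to 1047 CPM at birth (median 969) and 564 to 748 CPM at weaning (median 689). Member 4 had 653 to 1100 CPM at birth (median 950) and 446 to 635 CPM at weaning (median 562). IUHS calf 5 was the lowest birth calf in all of these, and in member 5. Member 5 had 691 to 882 CPM at birth (median 792) and 465 to 630 CPM at weaning (median 530), and with a within-group coefficient of variation (CV) of 7.89% it was the least variable of the 11.

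Members 6 and 7 lay at intermediate abundance. Member 6 had 276 to 527 CPM at birth (median 319) and 170 to 275 CPM at weaning (median 204). Here too IUHS calf 4 stood high, while the other 5 heat-stressed birth calves had 281 to 341 CPM. Member 7, ENSBTAG00000006607, had 224 to 331 CPM in cooled and 202 to 329 CPM in heat-stressed calves at birth, with medians of 292 and 238 CPM. At weaning it had 140 to 163 CPM in cooled and 152 to 198 CPM in heat-stressed calves, with medians of 154 and 168 CPM. The order of the treatments was thus opposite at the 2 ages, with ranges that overlapped at each. This ID was named after its values were seen.

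The 4 least abundant members had means under 100 CPM. Member 8 had 86.3 to 128 CPM at birth (median 102) and 69.1 to 83.0 CPM at weaning (median 79.0), the smallest ratio of the set. Member 9 had 59.9 to 89.0 CPM at birth (median 73.9) and 37.1 to 56.4 CPM at weaning (median 49.3). Weaning values of these members had CVs of 5.70% and 7.04% in heat-stressed calves, and of 5.82% and 13.1% in cooled calves. Member 10 had 30.95 to 56.9 CPM at birth (median 40.7) and 19.4 to 30.5 CPM at weaning (median 24.98). Member 11 had 25.2 to 45.2 CPM at birth (median 31.8) and 9.91 to 24.8 CPM at weaning (median 18.4). It had both the largest ratio, 1.83, and the largest within-group CV, 23.8%. Its mean count corresponds to a CV of 5.10% from counting error alone, and that of member 1 to 0.699%.

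**Figure D3:**
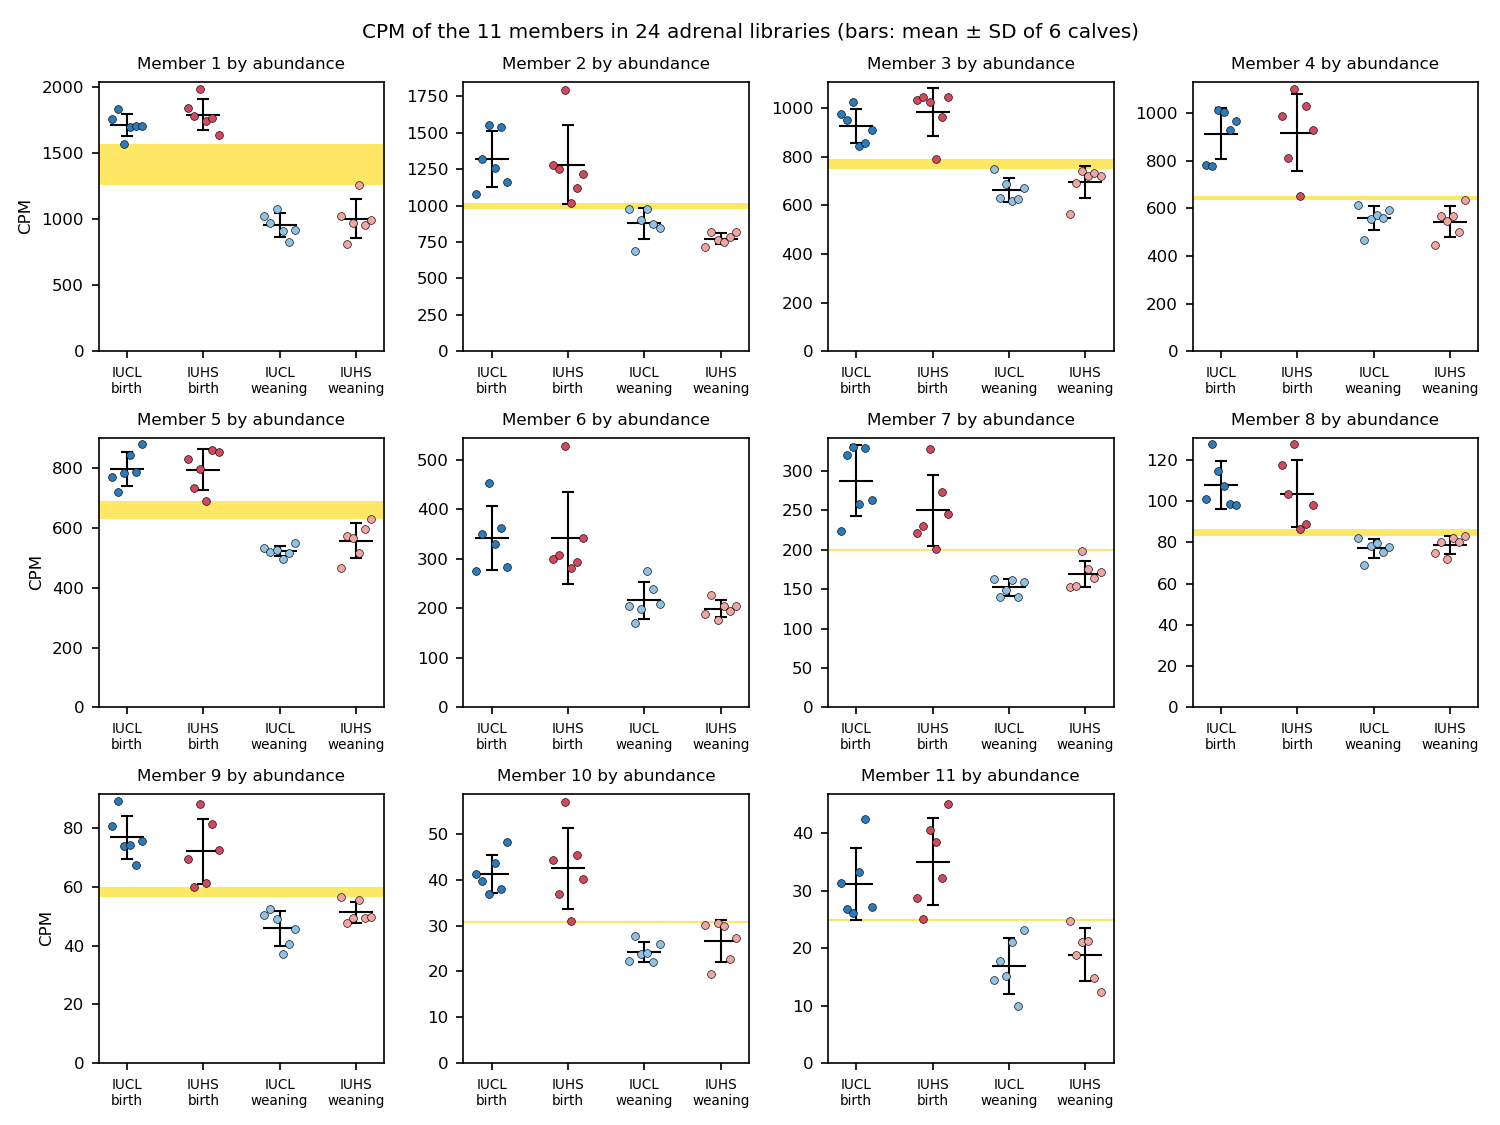
CPM of each member (linear axes from 0) in the 4 groups, with 1 point per calf, a horizontal bar for the mean of 6 calves and whiskers of 1 SD; the yellow band spans from the highest weaning to the lowest birth calf. The band is wide in member 1, at 311 CPM, and is barely visible in member 6, at 0.834 CPM.

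The members together took a small part of the reads. Their summed share of all counts in cooled calves was 0.656% ± 0.0294 at birth and 0.412% ± 0.0240 at weaning, and heat-stressed calves had 0.661% ± 0.0736 and then 0.412% ± 0.0236 (SD, n = 6 each). Treatment means were close at both ages, and the heat-stressed calves at birth spread most widely, from 0.559% in calf 5 to 0.787% in calf 4. Without member 1 the shares were 0.485% ± 0.0355 and 0.482% ± 0.0655 at birth and 0.316% ± 0.0209 and 0.312% ± 0.0212 at weaning.

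Both treatments showed the fall. Taken within each treatment, the ratio of birth to weaning means ran from 1.40 to 1.89 in cooled calves (median 1.63) and from 1.32 to 1.83 in heat-stressed calves (median 1.58). It was higher in cooled calves for 6 members and in heat-stressed calves for 5. With TMM scaling, in the edgeR fit, the fall was larger in cooled calves for 8 members and in heat-stressed calves for 3. In the edgeR fit over 15693 tested genes, all 11 members passed the low-count filter. The adjusted p was under 0.05 for 11 of 11 in cooled calves, where 6.37% of all genes were called lower, and for 10 of 11 in heat-stressed calves, where 3.66% were; the rule used this contrast, so nothing is read from these counts. The exception was member 8. Fitted changes ran from -0.93 to -0.48 in cooled and from -0.87 to -0.38 in heat-stressed calves (log2).

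The difference between heat-stressed and cooled calves was no term of the rule and was tested in the fit over all genes. The rule did use the same values, though: it asked every birth calf of both treatments to lie above every weaning calf with a ratio of means under 2, which tends to leave out IDs with a wide spread within an age, large treatment differences included. The counts and intervals below are therefore partly set by the selection. At birth 0 of 11 members passed in edgeR's quasi-likelihood test (lowest adjusted p = 0.99991, with 0% of all 15693 genes called) or in DESeq2. At an unadjusted p under 0.05 there were also 0 members in either tool, against 3.93% of all genes in edgeR. The log2 differences, IUHS minus IUCL, ran from -0.23 to 0.14 with 4 members higher and 7 lower in heat-stressed calves. Their median was -0.03, beside 0.01 over all genes. Every 95% interval lay within 0.53 of 0 on the log2 scale.

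At weaning 0 of 11 members passed in edgeR (lowest adjusted p = 0.813, 0% of all genes called) or in DESeq2, and 0 had an unadjusted p under 0.05 in either, against 6.99% of all genes in edgeR. Differences ran from -0.18 to 0.17, with 8 members higher and 3 lower in heat-stressed calves, a median of 0.08 beside 0.01 over all genes, and intervals within 0.56 of 0. Averaged over both ages, again 0 members passed in edgeR (lowest adjusted p = 0.944, 0% of all genes called) or in DESeq2. At an unadjusted p under 0.05 there were 0 in both tools, against 4.61% of all genes in edgeR. The averaged differences ran from -0.12 to 0.16, with intervals within 0.43 of 0.

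For member 1 the difference between treatments was 0.04 ± 0.11 at birth and 0.08 ± 0.11 at weaning (log2, SE; edgeR adjusted p = 0.99991 and 0.956), smaller than its standard error at each age. Its sign held at neither age. With 1 library left out in turn, the birth difference ran from -0.01 (without IUHS calf 4) to 0.07 (without IUHS calf 5), and the weaning difference from -0.03 (without IUHS calf 28) to 0.15 (without IUHS calf 23).

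The test of whether the fall with age differed between treatments gave 0 of 11 members past the threshold in edgeR (lowest adjusted p = 0.893, 0% of all genes called) and in DESeq2. At an unadjusted p under 0.05 there was 1 member in edgeR and 0 in DESeq2, against 5.56% of all genes in edgeR. That member was member 7, ENSBTAG00000006607. Cooled calves had a mean of 288 ± 45.0 CPM at birth and 152 ± 10.5 CPM at weaning, whereas heat-stressed calves had 250 ± 45.3 and then 169 ± 16.7 CPM (SD, n = 6 for each mean). The fitted fall was 0.39 ± 0.19 smaller in heat-stressed calves (log2, SE; 95% interval 0.01 to 0.77; edgeR unadjusted p = 0.0472, adjusted 0.893). Over the 29 alternative edgeR and DESeq2 fits this difference ran from 0.29 to 0.50. Its unadjusted p in them ran from 0.00674 to 0.153, and its adjusted p from 0.673 to 0.99993. In 17 of these fits 0 members had an unadjusted p under 0.05, in 11 there was 1 and in 1 there were 2. Across the members the interaction ran from -0.11 to 0.39 with a median of 0.04, beside -0.01 over all genes.

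**Figure D4:**
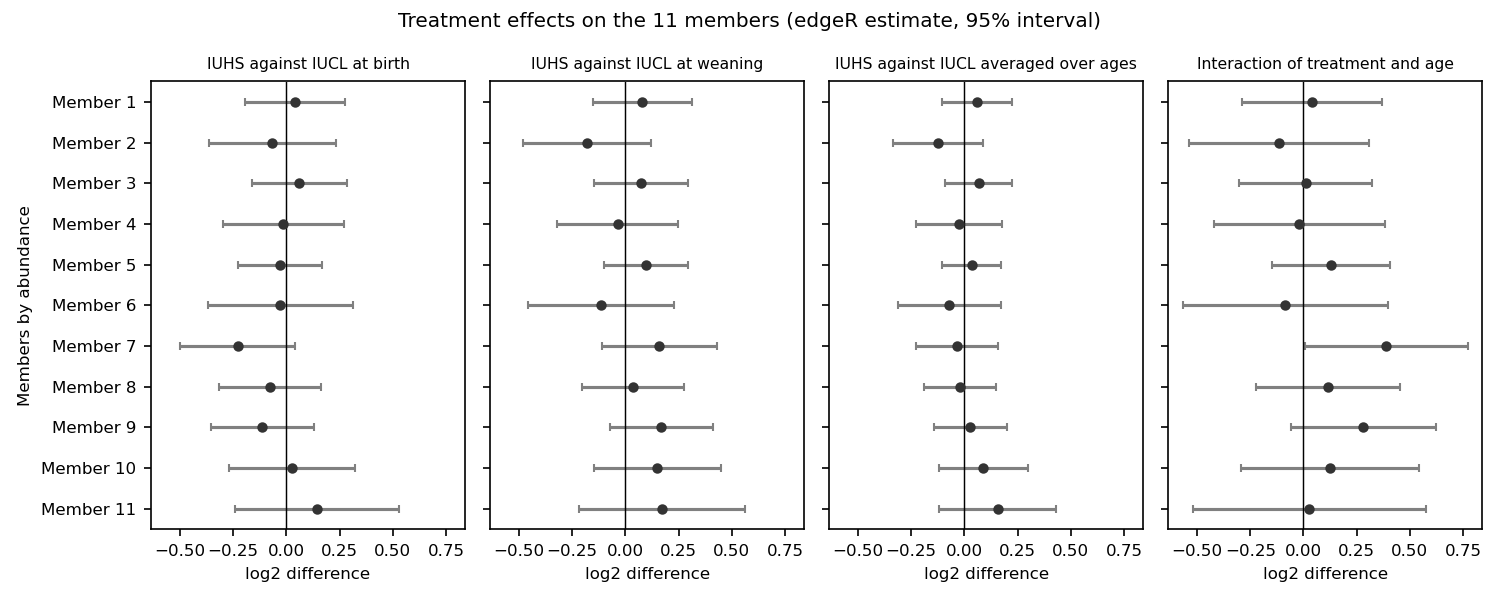
Points are edgeR log2 differences for each member and lines their 95% intervals, for heat-stressed minus cooled calves at birth, at weaning and averaged, and for the weaning difference minus the birth difference. All intervals include 0 except that of member 7 in the last panel, from 0.01 to 0.77, which did not pass after adjustment.

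Heat-stressed calves at birth were the most variable group by the median CV over the members. Members 1 and 5 instead had their largest CV in heat-stressed calves at weaning, and member 11 in cooled calves at weaning. The SD was larger in heat-stressed than in cooled calves at birth for 11 of 11 members, beside 60.5% of all 8208 IDs. The median CV over members was 10.8% in cooled and 17.7% in heat-stressed calves at birth, beside 15.4% and 17.8% over all IDs. At weaning it was 8.98% in cooled and 9.89% in heat-stressed calves, beside 14.7% and 16.2% over all IDs. IUHS calf 4 lay above its group mean in 11 of 11 members and IUHS calf 5 in 1 of 11. Without calf 4 the SD was larger in heat-stressed calves for 7 members, beside 55.1% of all IDs, and without calf 5 for 8, beside 51.8%. Without both it was larger for 5 of 11, beside 44.2% of all IDs, and the median CV was 9.25% over members and 14.4% over all IDs. With these calves left out the share thus fell in the members, from 11 to 5 of 11, and by less in all IDs, from 60.5% to 44.2%. These comparisons were chosen after the values were seen and have no test. The rule bounded the birth values from below and the weaning values from above, which tends to leave out IDs with a wide spread within an age. That the members had lower CVs than all IDs is therefore partly set by the selection.

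The members did not vary as 1 unit between calves. Deviations of log2 CPM from the group mean were correlated over the 24 calves, which share libraries and depth, for the 55 pairs of members. Pearson's r ran from -0.35 to 0.87 with a median of 0.18, beside 0.02 over all pairs of the 8208 IDs, and was above 0.5 for 12 pairs (21.8%, beside 8.44%). The highest value joined members 2 and 6, and members 7 and 8 followed member 2 with r of 0.74 and 0.71. Members 4 and 5 had 0.70. Member 4 also had 0.63 with member 2, 0.57 with member 7 and 0.50 with member 6, while members 7 and 8 had 0.43 with each other. Members 1, 9 and 10 had 0.54, 0.53 and 0.59 among themselves. They had at most 0.085 with member 2, but members 7 and 10 had 0.37, members 4 and 10 had 0.36 and members 7 and 9 had 0.29. Member 11 had its lowest r, -0.35, with member 3.

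Part of this pattern followed the same pair of heat-stressed birth calves. Without IUHS calves 4 and 5 the median r over member pairs was 0.04, beside 0.01 over all pairs of IDs, and 6 of 55 pairs were above 0.5, where 8.12% of all pairs were. Members 2 and 6 then had 0.78, members 4 and 5 had 0.68, and member 1 had 0.51 with member 9 and 0.53 with member 10. Each of these values was lower than with all calves. Other pairs fell further: members 9 and 10 had 0.41, and members 6 and 7 had 0.42. Members 6 and 8 had 0.44, and members 2 and 8 had 0.51. These are descriptions over calves, with no test.

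**Figure D5:**
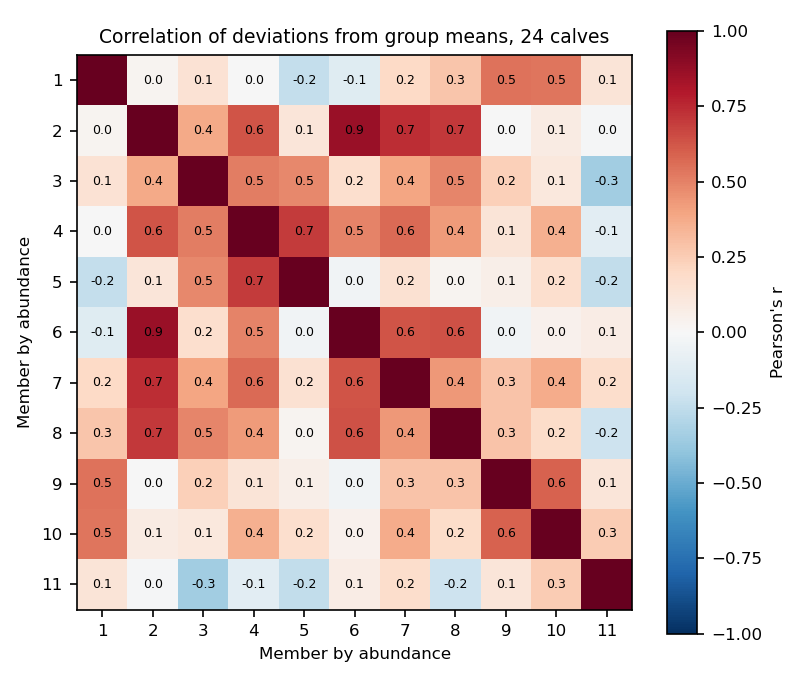
Pearson's r between members (both axes, numbered by abundance) of deviations of log2 CPM from the group mean over 24 calves, from blue at -1 to red at 1. Values among members 2, 6, 7 and 8 run from 0.43 to 0.87, member 4 reaches 0.63 with member 2, and values among members 1, 9 and 10 run from 0.53 to 0.59.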

How the data were processed

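RNA from adrenal gland of 24 calves was sequenced, and the authors deposited 1 table per calf of unnormalised read counts for 27570 Ensembl gene IDs. Per the submitters' processing notes, reads were checked with FastQC 0.11.7, and Trim Galore 0.4.4, HTSeq and HISAT2 (versions not given in the sources used here) are listed with build ARS-UCD1.2. Neither strand setting nor annotation release was given. How reads of overlapping, antisense or near-identical genes were assigned to IDs is not known here.

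Membership was computed in Python 3.11.15 from CPM on library totals. The tests used edgeR 4.0.16 (R 4.3.3): filterByExpr (minimum count 10, total 15), TMM, 1 quasi-likelihood model with a mean per group over 24 libraries, and Benjamini-Hochberg adjustment over 15693 genes, with 2-sided p-values and a threshold of 0.05. Intervals are 95%. DESeq2 1.42.0 was an alternative, with other scalings, no filter, single libraries left out and a replicate block. The lowest chi-square per degree of freedom over 276 library pairs was 16.2, so no pair looked like a repeat of the same library. This check cannot show that libraries came from different calves. Each library was counted as a replicate on the labels alone. Nothing beyond the labels says how calves were housed or related.

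Without gene names, the rule for named IDs took the member with the highest mean CPM and the one with the widest separation, which were the same ID, member 1. The gene lists fixed by symbol were not run. The members and lists were chosen with earlier results of these data known. Dividing by totals makes each CPM relative: a change in a few very abundant genes moves all others.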

Additional observations from a re-analysis of the deposited data

Results flagged for a closer look

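In 48 groups of 6 values (11 members and their summed share, in 4 groups), Dixon's test set 4 values apart, and chance alone would set apart about 1 in 20 groups. All 4 were in heat-stressed calves. IUHS calf 4 at birth had 1797 CPM of member 2, with the other 5 calves from 1016 to 1282 CPM, and 527 CPM of member 6, with the others from 281 to 341 CPM. IUHS calf 5 at birth was low in member 3, at 790 CPM, with the others from 964 to 1047 CPM. IUHS calf 18 at weaning was low in member 3 as well, at 564 CPM, with the others from 690 to 743 CPM.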

How the results depend on the processing

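The number of IDs that met the rule was 11 with the settings of the report, 16 and 9 with minimum means of 10 and 50 CPM, and 11 and 12 with 0 and 2 CPM added to the means. It ranged from 11 to 35 with each library left out in turn. Without IUCL calf 3 and IUHS calf 28 together, chosen from earlier results of these data, it was 22, and without IUHS calves 5 and 31 together it was 49; both choices were made after the data were seen, and leaving out libraries loosens the rule by construction.

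In the 4 treatment comparisons, 0 members passed after adjustment in each of the alternative fits run, and with each library left out in turn the number was 0 throughout. The number of members passing with age was 11 in cooled calves and ranged from 9 to 11 in heat-stressed calves with each library left out. The rule used this contrast, so nothing is read from these counts either. At an unadjusted p under 0.05 the number over such fits ran from 0 to 1 at birth and for the average, was 0 at weaning, and ran from 0 to 2 for the interaction. The replicate block, over the 8 birth calves whose numbers (1, 2, 5 and 7) occur in both treatments, called 0 members at birth. The numbers share no animal, so same-numbered calves are not taken as pairs. Their deviations had r from -0.12 to 0.29, and the 2 highest belonged to numbers 5 and 7. For these 2 numbers, the cooled calf had its highest r among the heat-stressed birth calves with the calf of the same number. Depth was not varied.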
